A study of Mus musculus with 16 samples.

Results

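The genes described here are those of the mouse mitochondrial genome, taken as every gene whose symbol begins with mt-. They number 37 of the 57132 genes in the count table: 13 mRNAs, 2 rRNAs and 22 tRNAs. They were followed through 16 RNA sequencing libraries of whole mouse bone marrow in 8 groups of 2. The groups were wild-type mice (WT, labelled CB57BL/6) and Nrf2-/- mice (KO, which lack the antioxidant regulator NRF2), each given PBS, BMX-001, 5-fluorouracil (5-FU, an antimetabolite of nucleotide synthesis) or BMX-001 with 5-FU. BMX-001, a manganese porphyrin, was dosed at 0.5 mg/kg, starting 24 h ahead of 5-FU and repeated at intervals of 3 days. 5-FU was given as 20 mg/kg and again on day 7, and day 10 was the day of marrow collection. The WT mice were 8 to 10 week old males, and the KO mice came from a cross of Nrf2+/- animals, with neither age nor sex given in the labels. Marrow was taken in duplicate, and the labels do not say that the 2 samples of a group are 2 animals, so the p-values may rest on technical spread alone. In whole marrow, fewer cells of a type and less RNA per cell cannot be told apart.

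Mitochondrial DNA is a small circle transcribed from both strands into long precursors, from which the tRNAs, lying between the other genes, are cut out to release the rRNAs and mRNAs. The mRNAs encode membrane subunits of respiratory complexes I, III, IV and of ATP synthase (complex V), and the rRNAs form the core of the mitochondrial ribosome. All other subunits, and every protein that copies, transcribes or translates the circle, come from nuclear genes. In marrow, maturing red cells remove their mitochondria as they become reticulocytes and erythrocytes.

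The nuclear genome also holds copies of mitochondrial sequence, and these bear on what a read count can show. In a search of the mitochondrial transcripts against all other transcripts (GENCODE M21 on GRCm38, an earlier build than the GRCm39 named by the submitters, so no coordinates are given), mt-Co2 (684 bases) shared an unbroken identical run of 681 bases with the pseudogene Gm28661. The run was 678 of 681 bases for mt-Atp6 with Gm10925, 783 of 784 for mt-Co3 with Gm28437, 294 of 297 for mt-Nd4l with Gm10222 and 342 of 348 for mt-Nd3 with Gm28438. These runs are longer than the 151-base reads. The first 60 bases of mt-Nd3 and its copy are shown because they hold their only substitution in the alignment, T3C (counted from 1 at the 5′ end of the gene, mitochondrial base first, in capitals). Bases 301 to 360 of mt-Co2 and its copy are shown because they are the same throughout. Bases 216 to 305 of mt-Nd6 and of its closest copy, Gm11408, are shown as the contrast, with 10 substitutions in capitals. The last sequence is the whole of mt-Tw, the tRNA with the most counts.
mt-Nd3: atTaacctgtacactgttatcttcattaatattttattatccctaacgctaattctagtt
Gm28438: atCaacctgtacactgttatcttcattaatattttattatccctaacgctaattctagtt
mt-Co2: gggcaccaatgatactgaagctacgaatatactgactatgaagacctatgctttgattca
Gm28661: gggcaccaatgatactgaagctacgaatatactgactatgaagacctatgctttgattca
mt-Nd6: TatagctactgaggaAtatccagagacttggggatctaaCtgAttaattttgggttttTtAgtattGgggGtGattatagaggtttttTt
Gm11408: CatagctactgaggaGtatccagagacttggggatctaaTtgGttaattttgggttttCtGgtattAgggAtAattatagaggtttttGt
mt-Tw: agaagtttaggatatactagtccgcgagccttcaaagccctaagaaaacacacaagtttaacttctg

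The mRNAs formed 2 sets by level. 7 of them had over 1000 counts in every library and held 93.2% of all mitochondrial counts, a set drawn after its values were seen: mt-Nd1, mt-Nd2, mt-Nd4, mt-Nd5 and mt-Nd6 of complex I, mt-Cytb of complex III and mt-Co1 of complex IV. The other 6 together held 0.0655% of mitochondrial counts. Per library there were 41 to 84 counts of mt-Co2, 46 to 91 of mt-Co3, 20 to 51 of mt-Atp6, 13 to 32 of mt-Nd3, 3 to 15 of mt-Nd4l and 0 to 5 of mt-Atp8. Of these 6, 5 are the genes named above whose sequence is nearly whole in a nuclear copy. The copies were low as well: Gm28661 had 37 to 65 counts per library, Gm10925 29 to 106, Gm28437 20 to 64 and Gm28438 0 to 7. mt-Atp8 is the exception, with a longest shared run of 43 of its 204 bases (Gm10925), and its end lies within the start of mt-Atp6. A partial or diverged copy did not go with a low count. mt-Nd4 shared an unbroken run of 876 of its 1378 bases with Gm28439. The longest such run of mt-Co1 was 479 of 1545 bases (Gm29216), and it aligned over all 1545 bases with Gm13340 at 97.61% identity. Both genes were among the 7. How reads that match several places were counted is not given in the sources used here, so the levels of mt-Co2, mt-Co3, mt-Atp6, mt-Atp8, mt-Nd3 and mt-Nd4l are uncertain. The shared runs of mt-Nd4 and mt-Co1 are also longer than the reads. Their levels per length and their shares of counts, given below, are therefore uncertain too. Whether shared sequence sets any of these levels was not tested.

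Per length, mt-Co1 (ENSMUSG00000064351.1), the catalytic subunit of cytochrome c oxidase, was the highest, at 2587 ± 438 CPM per kb of transcript (counts scaled to library size and divided by gene length, SD, n = 16, as for the levels per length that follow). mt-Cytb stood at 1089 ± 207 and mt-Nd1 at 898 ± 195. In this order mt-Co1 lay clear of mt-Cytb in all libraries (lowest 1808 against highest 1414), while each of the next 8 genes overlapped its neighbour. mt-Nd5 followed at 491 ± 86.5, mt-Nd4 at 357 ± 61.0 and mt-Nd2 at 276 ± 68.1. The rRNAs stood below these mRNAs, with mt-Rnr1 (12S, ENSMUSG00000064337.1) at 232 ± 78.7 and mt-Rnr2 (16S, ENSMUSG00000064339.1) at 214 ± 75.3. mt-Nd6 (ENSMUSG00000064368.1), the only mRNA encoded on the opposite strand, stood at 158 ± 54.5. Below it came mt-Co2 at 2.56 ± 0.522 and mt-Co3 at 2.42 ± 0.483. The lowest of the upper 9 genes in any library (mt-Rnr2, 82.9) lay above the highest value of the lower 6 (mt-Co2, 3.46).

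**Figure D1:**
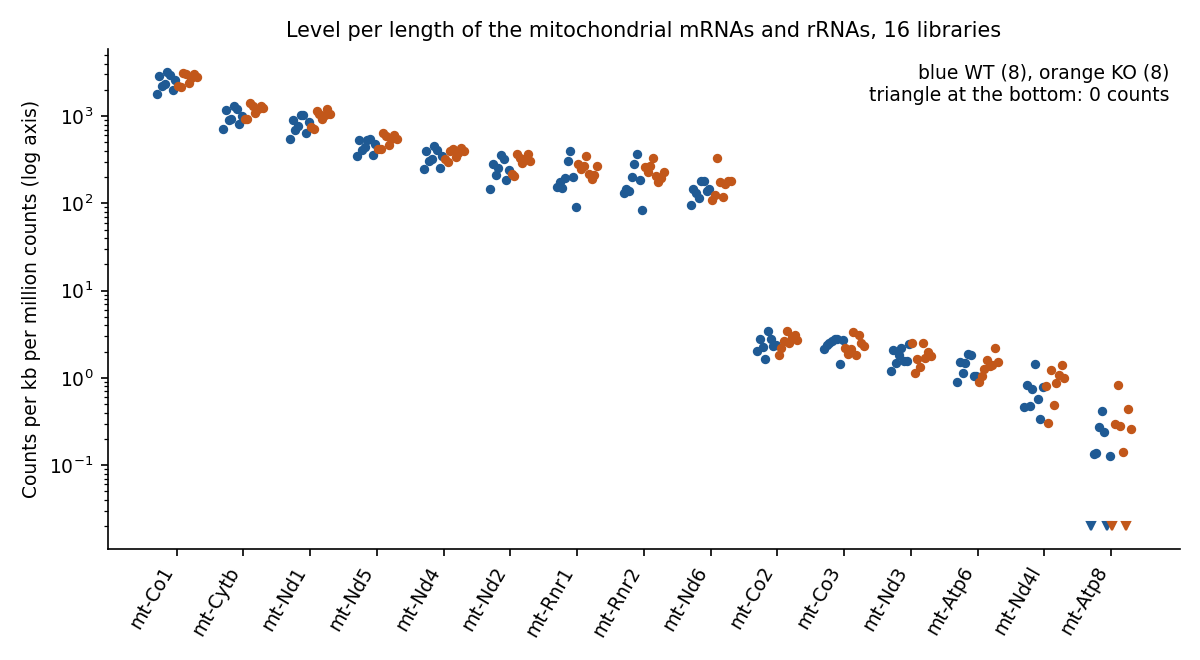
CPM per kb (log axis) of each mitochondrial mRNA and rRNA in the 16 libraries, 1 point per library, WT in blue and KO in orange. 9 genes lie at 82.9 or above in every library and 6 at 3.46 or below, and triangles mark libraries with 0 counts of mt-Atp8.

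The tRNAs, which are shorter than the reads, were near the limit of detection. Of the 22, mt-Tf, mt-Tv, mt-Tc, mt-Td, mt-Tk and mt-Ts2 had 0 counts in all 16 libraries, which allows up to 0.110 CPM (3 counts) in the smallest library. Another 7 had 1 to 10 counts over all libraries together, and 9 had over 50. mt-Tw (tryptophan) was the highest, with 37 to 149 counts per library and 1470 in all, followed by mt-Tt (threonine, 371), mt-Tp (proline, 318), mt-Tm (methionine, 301), mt-Tq (glutamine, 172) and mt-Ti (isoleucine, 78). These 6 tRNAs passed the low-count filter, as did both rRNAs and 12 of the 13 mRNAs (all but mt-Atp8), so 20 of the 37 members were tested.

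Of the 7 well-counted mRNAs, mt-Co1 made up 49.0% to 52.5% of mitochondrial mRNA counts, mt-Cytb 15.1% to 16.5%, mt-Nd5 10.3% to 12.0%, mt-Nd1 9.87% to 12.2%, mt-Nd4 5.55% to 6.70% and mt-Nd2 2.88% to 4.07%. mt-Nd6 varied more for its level, from 0.816% to 1.75%, with the highest share in KO BMX-001 replicate 1. The share of mt-Co1 was 52.0 ± 0.382% in WT and 49.9 ± 0.791% in KO (SD, n = 8 each). Its lowest WT value of 51.5% lay above its highest KO value of 51.3%, so the genotypes did not overlap in this share. The share of mt-Nd1 went the other way, at 10.4 ± 0.372% in WT and 11.3 ± 0.611% in KO, and its ranges overlapped. So did the share of mt-Cytb, at 15.14% to 15.771% in WT and 15.768% to 16.47% in KO, where the ranges barely overlapped. These shares are a description and were chosen after their values were seen. The ratio of mt-Rnr2 to mt-Rnr1 counts stayed between 1.378 and 1.688.

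By contrast, the rRNAs did not keep to the mRNAs. There were 7.15 ± 2.11 rRNA counts per 100 mRNA counts (SD, n = 16), from 2.85 in WT BMX-001 with 5-FU replicate 2 to 10.8 in WT 5-FU replicate 2. The duplicates of WT BMX-001 with 5-FU stood at 8.14 and 2.85. How rRNA was treated when the libraries were made is not described here. Whether that step had a part in the rRNA counts, and in the rRNA changes below, was not tested. KO PBS (10.2 and 9.10) lay above WT PBS (6.74 and 4.65) without overlap.

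**Figure D2:**
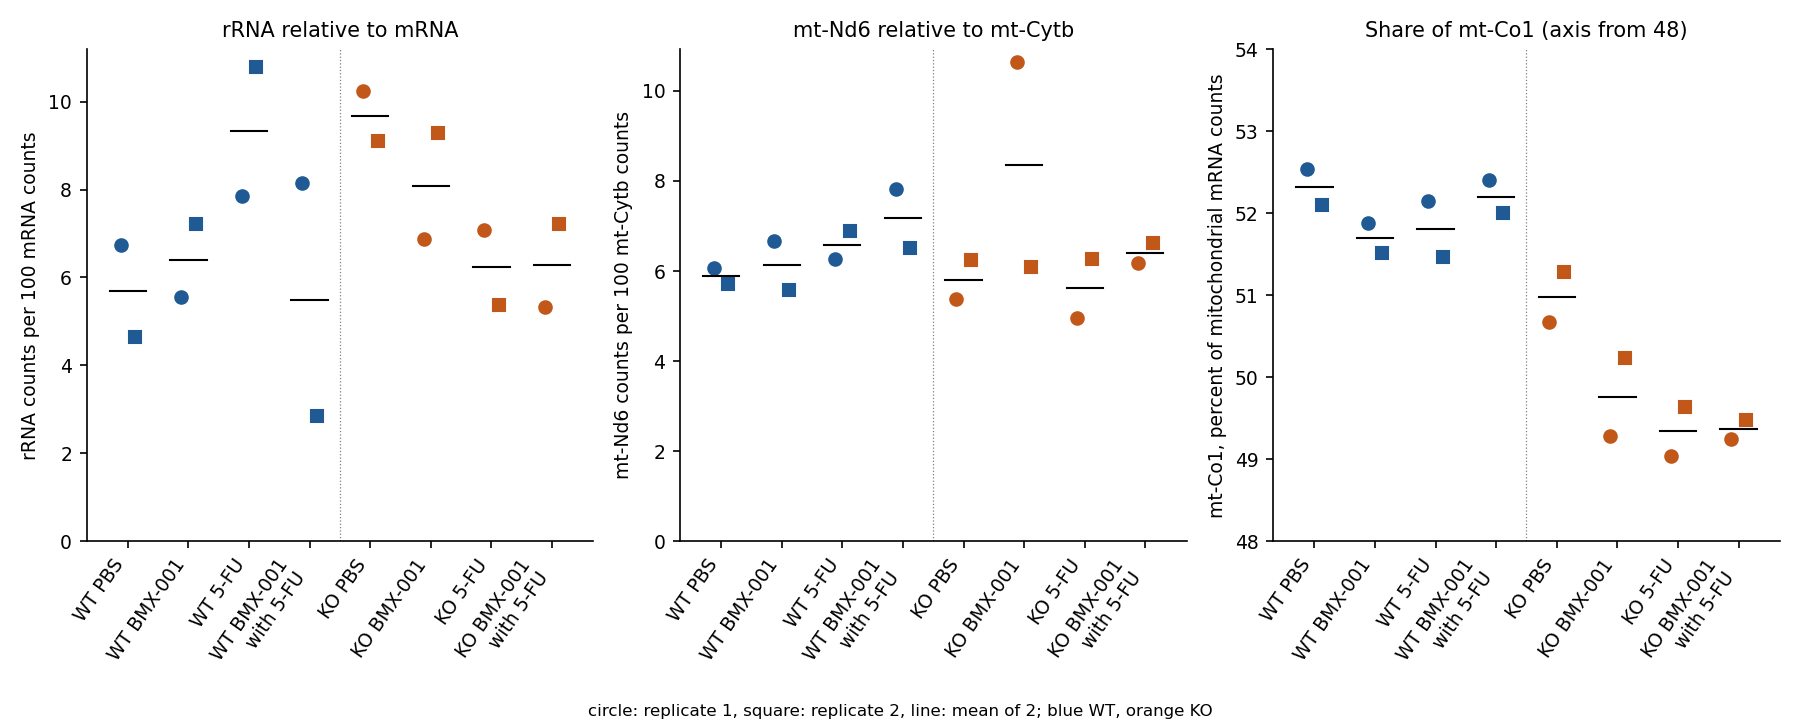
Ratios by group: rRNA counts per 100 mRNA counts, mt-Nd6 counts per 100 mt-Cytb counts, and mt-Co1 as a percent of mitochondrial mRNA counts (axis from 48%), with a circle for replicate 1, a square for replicate 2 and a line for the mean of 2. Every WT library lies above every KO library for mt-Co1, and KO BMX-001 replicate 1 stands alone for mt-Nd6 at 10.6.

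Library totals ran from 27305707 to 39909188 counts, and all 10 erythroid, 4 granulocyte precursor, 7 neutrophil and 7 B lineage markers were detected in every library. Of the totals, mitochondrial genes took 0.554% to 1.15%. Nfe2l2, the gene for NRF2, stood at 116 ± 6.17 normalised CPM over the 8 WT libraries and 8.97 ± 3.32 (SD) over the 8 KO libraries, with no overlap. KO BMX-001 replicate 1 stood apart: its nuclear RNA Malat1 was at 12210 CPM against 2549 to 5345 elsewhere, its granulocyte precursor markers summed to 547 CPM against 1939 to 3151, and its total was the lowest. Its Nfe2l2 was the highest of the 8 KO libraries, at 16.7 CPM against 6.48 to 9.50 in the others. This library also had the highest mt-Nd6 level, 172 CPM against 49.1 to 94 elsewhere. That made 10.6 mt-Nd6 counts per 100 of mt-Cytb against 4.96 to 7.83 in the other 15 libraries. The strand setting of the counting is not given in the sources used here, so reads of mt-Nd6 and of RNA from the opposite strand cannot be told apart. Each comparison whose contrast includes this library is given with and without it. The spread was estimated over all 16 libraries together, so this library also enters the edgeR p-values of the other comparisons. The WT PBS duplicates differed as well, at 5316 and 8513 CPM of mitochondrial mRNA, 2660 and 4807 CPM of Malat1, and 390 and 92.3 CPM of the summed megakaryocyte markers. Whether these features had a part in the results was not tested.

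Across the groups, summed mitochondrial mRNA ran from 5316 to 9820 CPM. It was 5316 and 8513 CPM in WT PBS, 6566 and 6973 in WT BMX-001, 9490 and 8917 in WT 5-FU, and 5920 and 7605 in WT BMX-001 with 5-FU. In KO it was 6660 and 6569 CPM with PBS, 9820 and 9224 with BMX-001, 7482 and 8595 with 5-FU, and 9527 and 8650 with both. WT 5-FU and the 3 treated KO groups were thus the upper groups, and the remaining 4 groups, apart from WT PBS replicate 2 and WT BMX-001 with 5-FU replicate 2, lay below the lowest of them, KO 5-FU replicate 1. Summed rRNA was 358 and 396 CPM in WT PBS, 364 and 504 in WT BMX-001, 745 and 963 in WT 5-FU, and 482 and 217 in WT BMX-001 with 5-FU. In KO it was 682 and 598 CPM with PBS, 675 and 857 with BMX-001, 530 and 462 with 5-FU, and 508 and 625 with both.

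**Figure D3:**
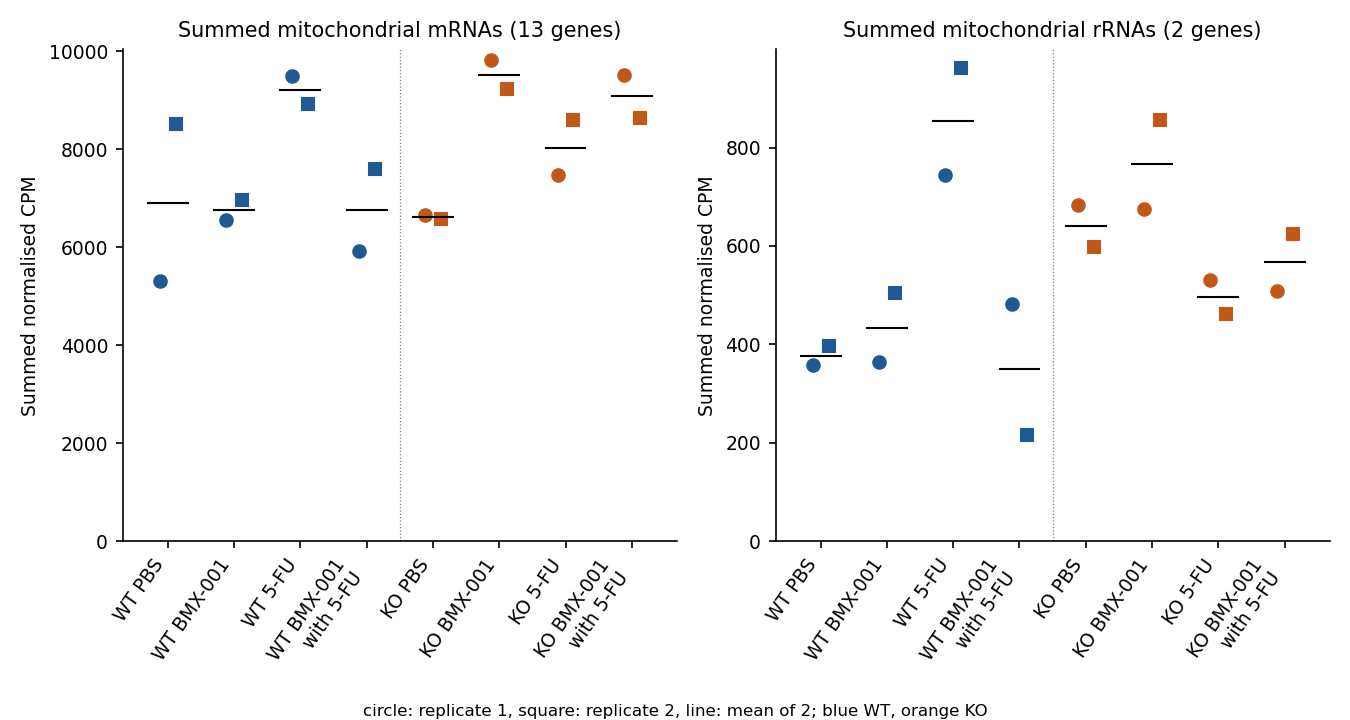
Summed normalised CPM of the 13 mitochondrial mRNAs (left) and the 2 rRNAs (right) in each library, by group, with a circle for replicate 1, a square for replicate 2 and a line for the mean of 2. WT 5-FU has the highest mean rRNA (854 CPM) and WT BMX-001 with 5-FU the lowest (349 CPM, from libraries at 482 and 217).

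Fold changes below come from edgeR's quasi-likelihood test over the 19152 genes that passed the filter, with Benjamini-Hochberg adjustment, and a gene was called at an adjusted p under 0.05. By this test, none of the 20 tested mitochondrial genes was called in any of the comparisons. The other tool, DESeq2, called none either, except in 3 comparisons named where they come. Where 1 of 2 duplicates is left out, the lone library is assumed to vary like the other groups. The mitochondrial mRNAs are cut from long precursors and were read in the same libraries. Counts of them by sign or overlap are therefore a description, not a count of independent results.

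For KO against WT over the 4 treatments, mitochondrial RNAs leaned towards KO but none was called, against 0.178% of all genes tested. An unadjusted p under 0.05 was found for 6 of 20, beside 2440 of all 19152 genes. The median log2 fold change was 0.17 over the 12 mRNAs and 0.37 over the rRNAs, against 0.0038 over all genes. mt-Nd1 (core subunit of complex I) had a log2 fold change of 0.29 ± 0.10 (SE, adjusted p = 0.249), from a mean of 771 CPM (SD 168, n = 8) in WT and 947 CPM (SD 170, n = 8) in KO. mt-Cytb had 0.23 ± 0.10 (adjusted p = 0.357), and mt-Co1 0.10 ± 0.10 (adjusted p = 0.665). mt-Rnr2 had 0.38 ± 0.15 (adjusted p = 0.316), from 304 CPM (SD 147) in WT and 374 CPM (SD 78.0) in KO. No mitochondrial gene separated the genotypes without overlap, where 0.178% of all genes did. The median over the mRNAs was 0.10 without WT PBS replicate 1 and 0.25 without replicate 2. Without KO BMX-001 replicate 1, mt-Nd1 had 0.28, and 273 genes were called in place of 34, none of them mitochondrial.

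In PBS alone, both rRNAs stood higher in KO and the mRNAs did not. None of the 20 genes was called, against 0.0261% of all genes. Both rRNAs, 2 of the 20, had an unadjusted p under 0.05, beside 850 of all 19152 genes. mt-Rnr2 stood at 414 and 364 CPM in KO PBS and at 210 and 229 CPM in WT PBS, a log2 fold change of 0.82 ± 0.30 (SE, adjusted p = 1). For both rRNAs both KO libraries lay above both WT libraries, as for 17.6% of all genes tested. mt-Co1 stood at 3374 and 3369 CPM in KO PBS, between the WT PBS values of 2793 and 4435 CPM, with a log2 fold change of -0.10 ± 0.19. The median over the 12 mRNAs was -0.06, and it went from -0.34 to 0.30 when WT PBS replicate 1 or replicate 2 was left out.

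With 5-FU alone in WT, both rRNAs stood at 2.14 and 2.35 times their PBS level and the 12 mRNAs at 1.13 to 1.58 times theirs. mt-Rnr2 was at 452 and 582 CPM with 5-FU against 210 and 229 CPM with PBS (log2 1.23 ± 0.30, SE, adjusted p = 0.117). mt-Rnr1 was at 293 and 381 CPM against 148 and 167 CPM (log2 1.10 ± 0.30, adjusted p = 0.147). In both genes every 5-FU library lay above every PBS library. mt-Nd2 (complex I) was at 367 and 334 CPM against 153 and 291 CPM (log2 0.66 ± 0.23, adjusted p = 0.222), and mt-Co1 at 4949 and 4589 CPM against 2793 and 4435 CPM (log2 0.40 ± 0.19, adjusted p = 0.368). All 12 mRNAs had positive values, with a median of 0.40 against -0.001 over all genes, and in 10 of the 12 the 5-FU libraries were both higher, as in 26.7% of all genes tested. edgeR called none of the 20, against 0.00522% of all genes, and 5 had an unadjusted p under 0.05, beside 2766 of all 19152 genes. DESeq2 called both rRNAs, mt-Rnr1 (adjusted p = 0.0111) and mt-Rnr2 (adjusted p = 0.0027), along with 2.93% of all genes it tested. Over the alternatives the adjusted p of mt-Rnr2 ran from 5.9e-13 to 0.667 and its log2 fold change from 1.038 to 1.402. The median over the mRNAs was 0.19 without WT PBS replicate 1 and 0.80 without replicate 2, so its size rests on which PBS library is kept. Beside this, the summed erythroid markers stood at 47644 and 48170 CPM with 5-FU against 60793 and 79650 CPM with PBS, and their part in the result was not tested.

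In KO, 5-FU alone went with higher mRNA values and lower rRNA values, and none was called by edgeR, against 0.454% of all genes. An unadjusted p under 0.05 was found for 2 of 20, beside 1805 of all 19152 genes. mt-Rnr2 was at 322 and 280 CPM with 5-FU against 414 and 364 CPM with PBS (log2 -0.37 ± 0.30, SE, adjusted p = 0.789), and both rRNAs were lower in every 5-FU library, as were 21.4% of all genes. mt-Nd2 was at 305 and 336 CPM against 227 and 216 CPM (log2 0.53 ± 0.23, adjusted p = 0.503). mt-Co1 was at 3669 and 4266 CPM against 3374 and 3369 CPM (log2 0.23 ± 0.19, adjusted p = 0.794). The 12 mRNAs all had positive values, with a median of 0.29 against 0.024 over all genes, and 9 of them were higher in both 5-FU libraries, as in 21.6% of all genes. The median was 0.50 without KO 5-FU replicate 1. The summed erythroid markers stood at 55377 and 62652 CPM with 5-FU against 79647 and 91220 CPM with PBS.

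Pooling 5-FU over BMX-001 gave 4 libraries against 4 in each genotype and smaller values. In WT, mt-Rnr2 had a log2 fold change of 0.44 ± 0.21 (SE, adjusted p = 0.535) and mt-Co1 0.21 ± 0.14 (adjusted p = 0.678). The WT value of mt-Rnr2 was 0.099 without WT BMX-001 with 5-FU replicate 1 and 0.67 without replicate 2, and that of mt-Co1 was 0.066 without WT PBS replicate 1 and 0.39 without replicate 2. In KO, mt-Rnr2 had -0.43 ± 0.21 (adjusted p = 0.319) and mt-Co1 0.08 ± 0.14 (adjusted p = 0.787). None of the 20 was called, against 0.0574% of all genes in WT and 1.9% in KO. None had an unadjusted p under 0.05, beside 1828 of all 19152 genes in WT and 3294 in KO. No mitochondrial gene had its 4 libraries with 5-FU clear of the 4 without, as 7.7% of all genes in WT and 7.92% in KO did. Without KO BMX-001 replicate 1 the KO values were -0.51 for mt-Rnr2 and 0.09 for mt-Co1. Summed rRNA with 5-FU spanned 217 to 963 CPM in WT and 462 to 625 CPM in KO.

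With BMX-001 alone in WT, both libraries lay between the WT PBS duplicates for each of the 7 well-counted mRNAs. mt-Co1 was at 3407 and 3592 CPM with BMX-001 and at 2793 and 4435 CPM with PBS (log2 -0.05 ± 0.19, SE, adjusted p = 0.997). mt-Rnr2 was at 220 and 316 CPM against 210 and 229 CPM (log2 0.29 ± 0.30, adjusted p = 0.997). The median over the mRNAs was -0.02, and it was 0.02 with upper-quartile scaling. It was -0.34 without WT PBS replicate 1 and 0.38 without replicate 2, so no direction can be read from it. None of the 20 was called by edgeR. Of them 1 (mt-Tm, log2 1.01 ± 0.38, from 10 to 31 counts per library) had an unadjusted p under 0.05, beside 977 of all 19152 genes. The share of all genes called was 0%.

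BMX-001 alone in KO went with higher mRNA values, led by mt-Nd6, whose value rests in part on 1 library. mt-Nd6, a complex I subunit, was at 172 and 90.1 CPM with BMX-001 against 57.2 and 65.5 CPM with PBS, a log2 fold change of 1.10 ± 0.27 (SE, adjusted p = 0.0816). mt-Nd2 was at 381 and 345 CPM against 227 and 216 CPM (log2 0.71 ± 0.23, adjusted p = 0.0989). mt-Nd1 was at 1092 and 1022 CPM against 725 and 679 CPM (log2 0.59 ± 0.20, adjusted p = 0.0993), and mt-Co1 at 4840 and 4633 CPM against 3374 and 3369 CPM (log2 0.49 ± 0.19, adjusted p = 0.125). The median was 0.56 over the 12 mRNAs against 0.030 over all genes, and 9 of the 12 were higher in both BMX-001 libraries, as in 25% of all genes. The rRNAs had 0.28 ± 0.30 (mt-Rnr2, adjusted p = 0.534) or less. Without KO BMX-001 replicate 1, mt-Rnr2 had 0.43, near the 0.46 of mt-Co1. Without replicate 2, mt-Rnr2 had 0.08, so how far the rRNAs lay from the mRNAs depends on the library kept. edgeR called none of the 20, against 0.00522% of all genes. An unadjusted p under 0.05 was found for 7 mRNAs, beside 5859 of all 19152 genes. DESeq2 called mt-Nd1, mt-Nd2, mt-Nd5 and mt-Nd6 among 1803 genes, 11.5% of those it tested. Without KO BMX-001 replicate 1, mt-Nd6 had 0.55 (adjusted p = 0.571, in a range of 2.9e-10 to 0.571 over the alternatives), mt-Nd2 0.64 and mt-Nd1 0.54, so mt-Nd6 stood near the other mRNAs. Without replicate 2 instead, edgeR called mt-Nd5, mt-Nd6 and mt-Tt, among 9015 genes.

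BMX-001 added to 5-FU, against 5-FU alone, gave medians below 0 in WT (-0.45 over the mRNAs) and above 0 in KO (0.18 over the mRNAs and 0.20 over the rRNAs). The tested tRNAs had negative medians in both, with 5 of 6 negative in WT (median -0.36) and 4 of 6 in KO (median -0.19). In WT, mt-Rnr1 was at 192 and 85.6 CPM with both drugs against 293 and 381 CPM with 5-FU alone (log2 -1.28 ± 0.30, SE, adjusted p = 0.998). mt-Rnr2 was at 290 and 131 CPM against 452 and 582 CPM (log2 -1.30 ± 0.30, adjusted p = 0.998). mt-Nd2 was at 193 and 253 CPM against 367 and 334 CPM (log2 -0.65 ± 0.23, adjusted p = 0.998), and mt-Co1 at 3102 and 3954 CPM against 4949 and 4589 CPM (log2 -0.43 ± 0.19, adjusted p = 0.998). Both rRNAs and 10 of the 12 mRNAs were lower in both libraries with both drugs, as in 23.2% of all genes. None of the 20 was called by edgeR or DESeq2, with 0% of all genes called. By edgeR 8 had an unadjusted p under 0.05, beside 753 of all 19152 genes. Without WT BMX-001 with 5-FU replicate 1, which leaves the library with 217 CPM of rRNA, both rRNAs had a log2 fold change of -1.98 (edgeR, adjusted p = 0.0494 for each). That arm is then 1 library, so this call rests on the spread of the other groups. Over all alternatives mt-Rnr2 ran from -1.98 to -0.83, with an adjusted p of 2.2e-13 to 1. The erythroid markers here summed to 61539 and 66977 CPM with both drugs against 47644 and 48170 CPM with 5-FU.

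In KO the same addition had mt-Co1 at 4692 and 4280 CPM against 3669 and 4266 CPM (log2 0.18 ± 0.19, SE, adjusted p = 1) and mt-Rnr2 at 306 and 366 CPM against 322 and 280 CPM (log2 0.16 ± 0.30). The median over the mRNAs was 0.085 without KO 5-FU replicate 1 and 0.081 without KO BMX-001 with 5-FU replicate 1. Of the 12 mRNAs 7 were higher in both libraries, as in 18.5% of all genes. None of the 20 was called by edgeR or DESeq2, and 0% of all genes were called. By edgeR none had an unadjusted p under 0.05, beside 499 of all 19152 genes.

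**Figure D4:**
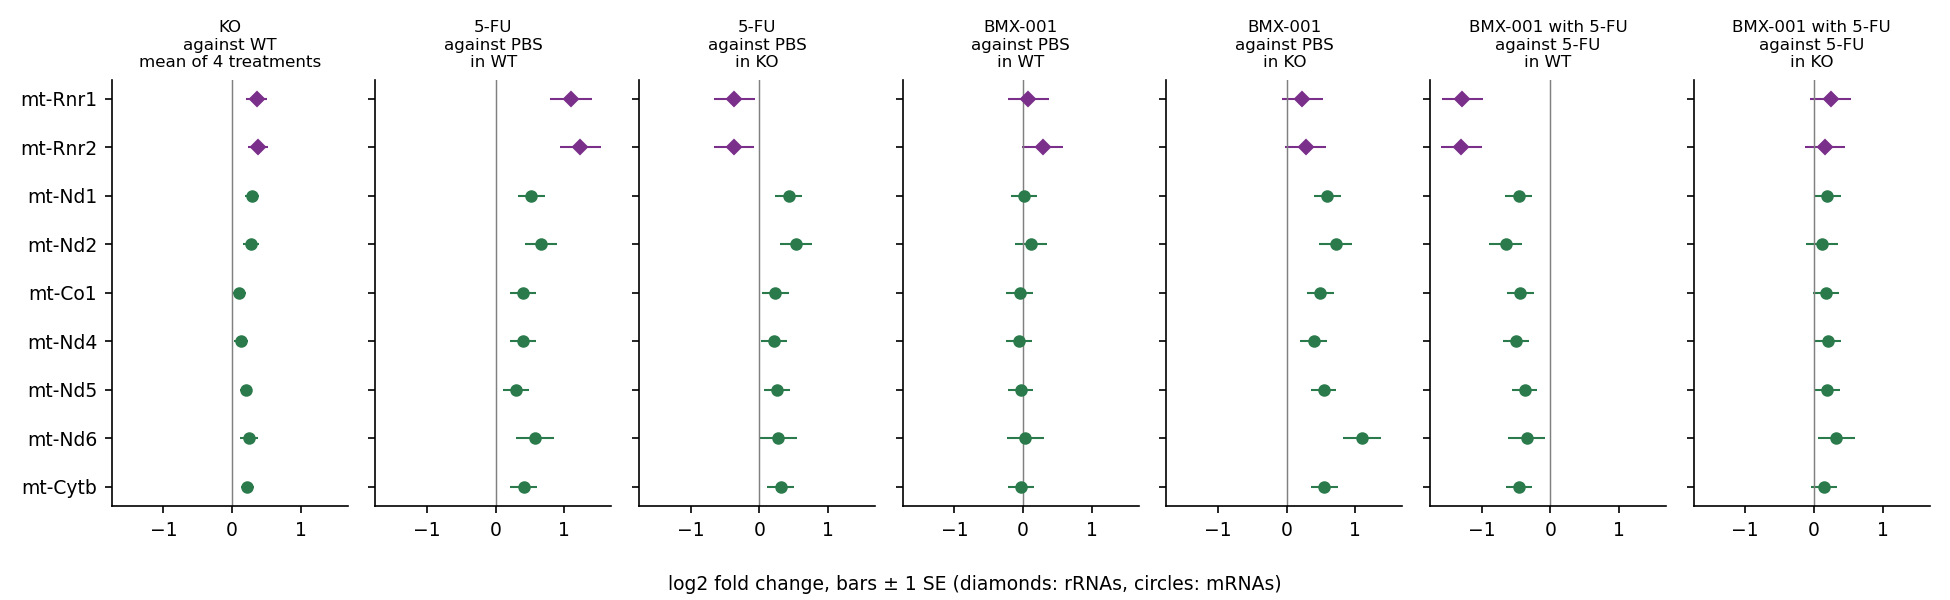
Log2 fold changes of the 2 rRNAs (diamonds) and the 7 mRNAs with over 1000 counts (circles) in 7 comparisons, with bars of 1 SE on each side. The rRNAs lie apart from the mRNAs with 5-FU in WT (1.10 and 1.23) and in KO (-0.37 for both), and lie lowest for BMX-001 with 5-FU against 5-FU in WT (-1.28 and -1.30).

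The difference of the 5-FU effect between genotypes was tested for the pooled contrast, where mt-Rnr1 had -0.78 ± 0.30 (SE, log2, KO minus WT), mt-Rnr2 -0.87 ± 0.30 and mt-Nd6 -0.50 ± 0.27 (edgeR, adjusted p = 0.689 for each). None of the 20 was called, 0% of all genes were, and the 2 rRNAs had an unadjusted p under 0.05, beside 1300 of all 19152 genes. Without KO BMX-001 replicate 1, mt-Rnr2 had -0.95 and mt-Nd6 -0.22. Without WT BMX-001 with 5-FU replicate 1, mt-Rnr1 had -0.43 and mt-Rnr2 -0.52. For 5-FU without BMX-001, a contrast added after the data were seen, mt-Rnr1 had -1.47 ± 0.42 and mt-Rnr2 -1.60 ± 0.42 (edgeR, adjusted p = 0.846 for each, with 0% of all genes called). DESeq2 called both (adjusted p = 0.0490 and 0.0207) among 18 genes, 0.63% of those it tested, and over the alternatives the adjusted p of mt-Rnr2 ran from 5.1e-11 to 1. mt-Co1 had -0.17 ± 0.27 in that contrast. For BMX-001 added to 5-FU, also added after the data were seen, mt-Rnr1 had 1.52 ± 0.42, mt-Rnr2 1.46 ± 0.42, mt-Nd2 0.77 ± 0.33 and mt-Co1 0.61 ± 0.27 (edgeR, adjusted p = 0.966 for each). There 9 of the 20 had an unadjusted p under 0.05 by edgeR, beside 891 of all 19152 genes. None was called by either tool, and edgeR called 0% of all genes.

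The nuclear genes of the same complexes had medians of the opposite sign to the mitochondrial mRNAs in several comparisons, and none of them was called in any. With 5-FU in WT, where all 12 mitochondrial mRNAs were positive, 33 of 37 nuclear complex I genes were negative (median -0.21), as were all 9 of complex III (median -0.22), 12 of 15 of complex IV (median -0.25) and 15 of 16 tested of complex V (median -0.19). The 4 genes of complex II, which has no mitochondrially encoded subunit, had a median of -0.21. Cox4i1, a complex IV subunit, had -0.30 ± 0.11 (SE, log2, edgeR adjusted p = 0.224) beside 0.40 ± 0.19 for mt-Co1. With BMX-001 in KO the medians were -0.24 for complex I, -0.33 for complex III, -0.20 for complex IV and -0.19 for complex V, beside 0.56 for the mitochondrial mRNAs. Without KO BMX-001 replicate 1 these medians were nearer 0, at -0.16, -0.15, -0.13 and -0.15. Atp5b, the catalytic subunit of ATP synthase, had -0.63 ± 0.24 in that comparison (adjusted p = 0.116), and -0.20 (adjusted p = 0.626) without that library. When BMX-001 was added to 5-FU in WT, the signs were reversed: 36 of 37 complex I genes were positive (median 0.17) beside -0.45 for the mitochondrial mRNAs. That comparison shares the WT 5-FU libraries with 5-FU against PBS in WT. For 5-FU in KO, by contrast, both medians were positive, with 25 of 37 complex I genes positive (median 0.04). The signs given for complexes I to V here held under the other scalings.

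**Figure D5:**
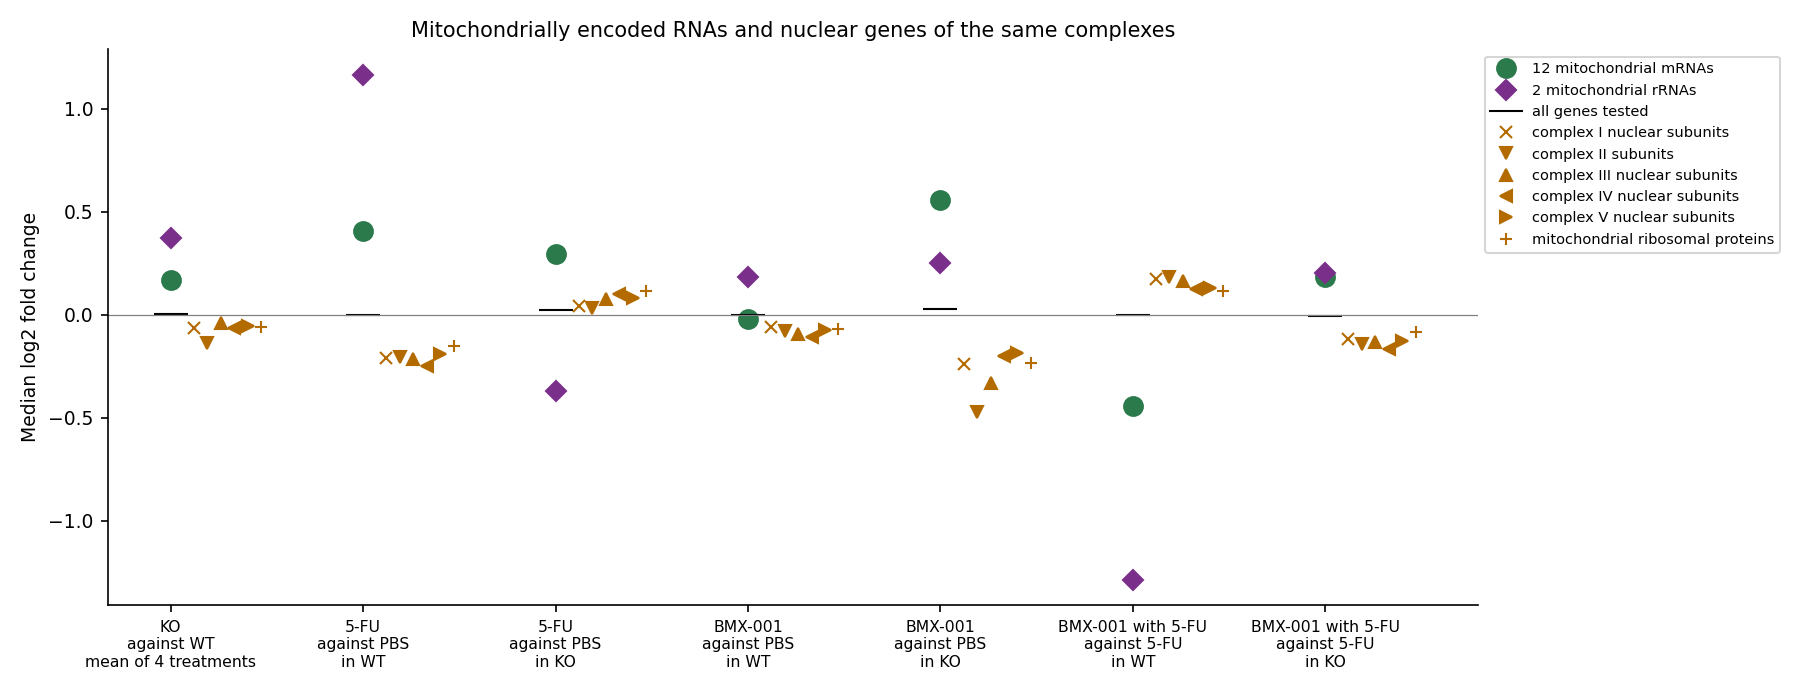
Median log2 fold change of the 12 tested mitochondrial mRNAs (green circles), the 2 rRNAs (purple diamonds), nuclear genes of complexes I to V and the mitochondrial ribosome (orange symbols) and all genes tested (black bars) in 7 comparisons. With 5-FU in WT the mRNAs lie at 0.40 and the nuclear lists at -0.15 to -0.25.

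Among the proteins that work on mitochondrial RNA, the 78 mitochondrial ribosomal proteins, partners of the rRNAs, had a median of -0.15 with 5-FU in WT (64 negative) and 0.12 in KO (69 positive), with none called. In both genotypes this sign was opposite to that of the rRNAs. The 42 genes for mitochondrial RNA synthesis, processing and decay had medians of -9.7e-05 in WT and 0.07 in KO, with none called. The 17 mitochondrial aminoacyl-tRNA synthetases had medians of 0.11 and 0.13, and the 9 regulators of biogenesis -0.04 and -0.02, with none called. The biogenesis medians, and that of RNA synthesis in WT, were positive with library totals or upper-quartile scaling. Lrpprc, which stabilises mitochondrial mRNAs, had 0.04 ± 0.14 (SE, log2) with 5-FU in WT. The 7 tested of 10 nuclear copies of mitochondrial sequence had a median of 0.63 with 5-FU in WT and 0.75 with BMX-001 in KO, all 7 positive in each, and none was called.

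Genes for the clearance of mitochondria were the one nuclear list with called members. In KO, with 5-FU pooled over BMX-001, 5 of the 12 fell and none rose, where 1.9% of all genes were called and 1.74% fell. The list's median was -0.25, against 0.009 over all genes. Pink1, the kinase that marks damaged mitochondria, was at 67.0 to 84.3 CPM in the 4 KO libraries with 5-FU and at 114 to 129 CPM in the 4 without, and fell by 0.69 ± 0.10 on the log2 scale (SE, edgeR adjusted p = 0.00306). Ulk1, a kinase that starts autophagy, fell by 0.74 ± 0.11 (adjusted p = 0.00331), from 116 to 157 CPM without 5-FU to 72.4 to 85.7 CPM with it. Optn, an autophagy receptor, fell by 0.49 ± 0.09 (adjusted p = 0.0097). The other two were Bnip3l, the receptor by which maturing red cells clear mitochondria (-0.63 ± 0.11, adjusted p = 0.0106), and Sqstm1, another autophagy receptor (-0.44 ± 0.09, adjusted p = 0.0174). In all 5 genes the 4 libraries with 5-FU lay below the 4 without, a description only, since they were called in this contrast, where 7.92% of all genes had no overlap in either direction. With 5-FU alone in KO, Pink1 fell by 0.73 ± 0.14 (adjusted p = 0.0446), where 0.444% of all genes fell. Pink1 was the only called gene of the 12 there in the fit of all 16 libraries.

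In WT the same pooled contrast gave Pink1 -0.43 ± 0.10 (SE, edgeR adjusted p = 0.169), Ulk1 -0.27 ± 0.11 (adjusted p = 0.447) and Sqstm1 -0.44 ± 0.09 (adjusted p = 0.115). None of the list was called there in the fit of all 16 libraries. Bnip3l was at 454 to 605 CPM in the 4 WT libraries with 5-FU and 509 to 818 CPM in the 4 without. Optn was at 90.4 to 98.8 CPM with 5-FU and 94.7 to 117 CPM without. In the fit without KO BMX-001 replicate 1, Bnip3l had -0.44 in this WT contrast and -0.62 for 5-FU alone in KO. Whether Bnip3l passed the threshold in either contrast depended on that library, so its fall cannot be read as confined to KO. The difference between genotypes did not pass the threshold for any of the 5 (Ulk1 -0.47 ± 0.16, adjusted p = 0.689). The 10 erythroid markers, none at 0 in any library, moved with these genes, summing to 55377 to 68047 CPM in the 4 KO libraries with 5-FU and 79647 to 91220 CPM in the 4 without, and their part in the result was not tested. Without KO BMX-001 replicate 1, all 5 genes remained called, with Pink1 at -0.72, and its adjusted p ran from 8.9e-09 to 0.0254 over the alternatives. The number was 2 without KO BMX-001 with 5-FU replicate 1, 3 without either KO 5-FU library or KO BMX-001 with 5-FU replicate 2, and 8 (2 of them higher) without KO BMX-001 replicate 2.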

How the data were processed

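The authors deposited raw counts per gene for 16 libraries in a single file, with 0 columns unused. The submitters' processing notes name the build GRCm39, featureCounts, Salmon 1.4.0, Trim Galore 0.6.4, DESeq2 1.38.3, FastQC 0.12.1 and R 4.3.0, without roles. The aligner, like the annotation release, strand setting and treatment of reads with several matches, is not given in the sources used here.

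Symbols were joined by Ensembl ID from GENCODE M21, which names 51880 of 57132 IDs. IDs without a symbol held 2.69% of counts. The tests used edgeR 4.0.16 in R 4.3.3 (filterByExpr, TMM factors, robust quasi-likelihood fit of 8 group means, 8 residual degrees of freedom), limma 3.58.1, data.table (version 1.17.8) and, as an alternative, DESeq2 1.42.0. CPM are counts scaled to the TMM-adjusted library total, and levels per kb divide them by gene length. Transcripts were compared with blastn 2.17.0 (word size 16, e-value 1e-05). The fit was also run on simulated counts with known changes. How many of these it found is not reported here, so its power is not stated. There were 13 comparisons, each adjusted over all tested genes, and 2 of them were added later.

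The members and lists were chosen with earlier results of these data known. Named were all mt- genes (tRNAs by range, the tested ones by name), Nfe2l2, Malat1, up to 3 called genes per list with the smallest p, or else its most abundant gene. Bnip3l and Sqstm1, called as well, were named after their values were seen. Alternatives were other scalings, no filter, no robust fit, a replicate block, totals without mitochondrial and haemoglobin genes, and each library left out. The clearance genes, and the nuclear lists without KO BMX-001 replicate 1, were followed after the data were seen. Duplicates differed by more than sampling noise in all 8 groups (chi-square per degree of freedom 8.09 to 130).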

Additional observations from a re-analysis of the deposited data

How the results depend on the processing

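Under 7 other settings of the fit, the count of mitochondrial genes called stayed at 0 in all 13 comparisons, except without the low-count filter and with DESeq2. Without the filter the calls were 5 for KO against WT, 2 for KO against WT in PBS, 4 for 5-FU in WT, 1 for 5-FU in KO, 5 for BMX-001 in KO, 3 (lower) for BMX-001 added to 5-FU in WT, 3 and 2 (lower) for pooled 5-FU in WT and KO, 2 (lower) for both genotype differences in the 5-FU effect, and 2 for that in the effect of added BMX-001. Over all genes that fit called 879 in place of 34 for KO against WT and 3651 in place of 1 for BMX-001 in KO, and the cause was not tested. DESeq2 called 338 in place of 34 for KO against WT and 863 in place of 364 for pooled 5-FU in KO, where library totals called 1701. DESeq2 called 2 for 5-FU in WT, 4 for BMX-001 in KO and 2 for the genotype difference in the 5-FU effect without BMX-001. Leaving out each replicate gave 0 to 3 for BMX-001 in KO, 0 to 2 for BMX-001 added to 5-FU in WT, and 0 in the other 11. The median over the mRNAs ranged from -0.34 to 0.30 for KO against WT in PBS, from 0.19 to 0.80 for 5-FU in WT, from -0.34 to 0.38 for BMX-001 in WT, and from -0.49 to 0.22 for the genotype difference in the 5-FU effect without BMX-001, the extremes coming without WT PBS replicate 1 or 2. The spread between duplicates of this median was 0.26 (SD). The count of clearance genes ranged from 2 to 8.

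Single values changed sign only without 1 replicate. Over the libraries left out, mt-Co1 ran from -0.39 to 0.27 for KO against WT in PBS and from -0.36 to 0.33 for BMX-001 in WT (the highest without WT PBS replicate 2), from -0.31 to 0.018 for the pooled genotype difference and from -0.54 to 0.13 for that without BMX-001 (the highest without WT PBS replicate 1). For BMX-001 in WT mt-Rnr2 ran from -0.016 (without WT BMX-001 replicate 2) to 0.53. With library totals in place of TMM factors the median of all genes shifted by up to 0.19 (5-FU in KO). The replicate block called 0 mitochondrial genes in all 13 comparisons (lowest adjusted p 0.114), 5 clearance genes, and changed no other call named here. Over 28 pairs of groups, the replicate differences correlated at -0.39 to 0.20, with 6 over 0.1. With 2 libraries per group this cannot settle whether equal replicate numbers mark paired samples. Depth limits the tRNAs and the 6 low mRNAs.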
